A study of Mus musculus with 18 samples.

Results

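The Cebpg-/- and Atf4-/- fibroblasts were compared directly with each other after amino acid deprivation. The comparison uses 6 of the 18 arrays of the study, chosen by their titles: the 3 Cebpg-/- arrays and the 3 Atf4-/- arrays in AAD (amino acid-deprived) medium. The study measured RNA on Affymetrix whole-genome mouse arrays in mouse embryonic fibroblasts (MEFs), connective tissue cells grown from E13.5 embryos and used at early passage. They were wild type (WT), Atf4-/- or Cebpg-/-, were plated for 24 h, and were then given either normal or AAD medium for 3 h. AAD medium was Krebs-Ringer buffer with supportive supplements. Each of the 6 groups had 3 arrays. Both genes were lost from the embryo on, so a difference in AAD medium alone does not separate the 3 h of deprivation from the life of the cells before it. The same difference in normal medium, and the test of whether it differed between the media, therefore stand beside the results. Whether the arrays of a group stand for different embryos is not stated in the labels. The p-values therefore cover the spread between these arrays alone, and that spread may be technical.

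ATF4 and C/EBPγ, the product of Cebpg, are both bZIP transcription factors: they bind DNA as pairs, held together by a leucine zipper. When amino acids run short, the kinase GCN2 phosphorylates the initiation factor eIF2. General translation slows while the ATF4 messenger is translated better, the core of the integrated stress response. ATF4 binds as a heterodimer with a C/EBP protein at composite elements that join a C/EBP half-site to an ATF half-site, and it switches on genes for amino acid synthesis, amino acid uptake, tRNA charging and glutathione. C/EBPγ lacks a strong activation domain of its own and is known as one such partner of ATF4. The knockouts thus remove different members of one pair, and the question put here is which genes differ between the cells that lack one and the cells that lack the other.

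Levels are log2 values made with RMA, a method that corrects, normalizes and sums the probes of a probe set. A difference of 1 is 2-fold. Differences are Cebpg-/- minus Atf4-/- ± standard error from limma with n = 3 arrays per group, so a positive value is a higher level in Cebpg-/- cells. Adjusted p-values are Benjamini-Hochberg values over 13224 autosomal genes, and genes with an adjusted p under 0.05 were called. The levels of different genes are not compared, since probes differ in brightness.

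The arrays of the comparison had medians of 5.22 to 5.26, and each correlated with the others of its group at a mean r of 0.996 to 0.997 over all probe sets. Sex-linked genes, which were left out of every test, were not alike within the Atf4-/- group. The Y-linked gene Eif2s3y stood at 8.80 in Atf4-/- replicate 1, against 3.28 and 3.18 in replicates 2 and 3 and 2.88 to 3.10 in Cebpg-/- cells. Xist, which female cells express from the inactive X chromosome, stood at 5.42 in that replicate and at 11.93 to 12.31 in the other 5 arrays. The 3 WT arrays in AAD medium carried the Y-linked signal (Eif2s3y 7.72 to 8.28). Cebpg-/- cells and WT cells thus differed in genotype and in sex-linked expression, which cannot be told apart. Atf4-/- replicates 2 and 3 differed from WT cells in both ways too. Counts are given with and without Atf4-/- replicate 1.

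The targeted genes came first. In AAD medium the Atf4 probe set stood at 6.19, 6.55 and 6.60 in Atf4-/- cells and at 12.70, 12.64 and 12.72 in Cebpg-/- cells, where WT cells had 12.84 ± 0.07 (SD, n = 3). The Atf4-/- arrays lay far below all others. The difference was 6.24 ± 0.09 (75.7-fold, adjusted p = 2.78e-16). Cebpg stood at 8.01, 7.96 and 7.76 in Atf4-/- cells and at 9.52, 9.43 and 9.82 in Cebpg-/- cells, against 10.33 ± 0.12 in WT. Cebpg RNA was thus 1.68 ± 0.11 higher in the cells labelled Cebpg-/- than in Atf4-/- cells (adjusted p = 1.22e-08), and the other Cebpg probe sets differed by 0.94 and 0.93 in the same direction. The sources used here do not place these probes relative to the deleted part of Cebpg, and Cebpg RNA is thus no check of that knockout.

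The knockouts differed across a large part of the transcriptome. In AAD medium 6478 of 13224 genes were called, 49% of all genes tested: 2837 were higher in Cebpg-/- cells (21.5%) and 3641 were higher in Atf4-/- cells (27.5%). The median difference over all genes was -0.004. Among differences of at least 2-fold the balance was the other way, with 511 genes higher in Cebpg-/- cells (3.86%) and 266 higher in Atf4-/- cells (2.01%). The arrays of the knockouts did not overlap for 53.6% of all genes. They did not overlap for 509 of the 511 genes and for all 266, which follows largely from choosing these genes on the same arrays. Without Atf4-/- replicate 1 in AAD medium 5968 genes were called, and in normal medium, with all arrays, 6568 (49.7%).

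**Figure D1:**
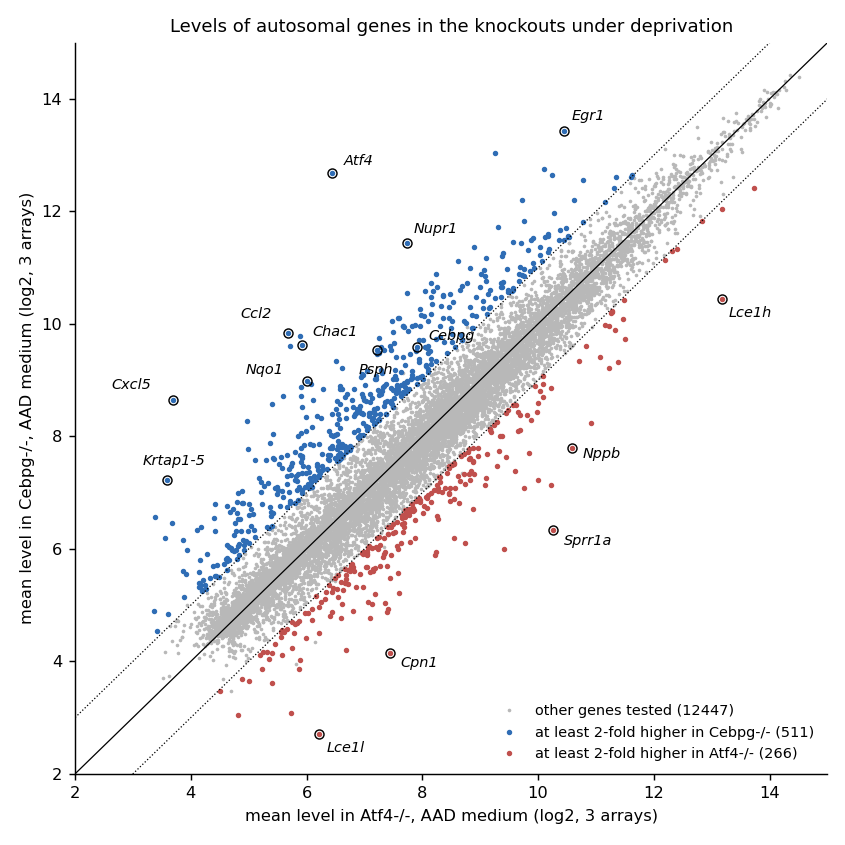
Mean log2 level of each autosomal gene in AAD medium in Atf4-/- cells (x axis) and in Cebpg-/- cells (y axis), 3 arrays each; the solid line marks equal levels and the dotted lines 2-fold differences. Blue points are the 511 genes called and at least 2-fold higher in Cebpg-/- cells, red points the 266 at least 2-fold higher in Atf4-/- cells, and Atf4 lies farthest from the line.

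The 15 named genes with the largest excess in Cebpg-/- cells (differences of 2.97 to 6.24), led by Atf4 itself, included chemokines, extracellular proteins, stress response genes and Egr1. The neutrophil attractant Cxcl5 stood at 4.02, 3.44 and 3.61 in Atf4-/- cells and at 8.93, 8.56 and 8.43 in Cebpg-/- cells, a difference of 4.95 ± 0.35 (adjusted p = 2.48e-08). The monocyte attractant Ccl2 stood at 5.55, 5.68 and 5.80 against 10.42, 9.65 and 9.47 (4.17 ± 0.21, adjusted p = 1.27e-09). The WT cells stood far above the Atf4-/- cells for both genes, at 7.73 ± 0.67 for Cxcl5 and 10.58 ± 0.06 for Ccl2. Mcpt8, a protease of basophils and mast cells, stood at 5.34, 5.88 and 6.42 against 9.58, 9.88 and 9.89 (3.90 ± 0.43, adjusted p = 2.11e-06), with WT cells between them at 7.38 ± 0.76, and it differed by 4.10 ± 0.43 in normal medium. Plscr2, of the phospholipid scramblase family, differed by 3.19 ± 0.23. Mgp, a matrix protein that inhibits calcification, differed by 3.79 ± 0.21 and Fmod, the collagen-binding proteoglycan fibromodulin, by 3.30 ± 0.28. The GTPase Rnd1, which loosens the actin cytoskeleton, differed by 3.18 ± 0.24. Of the 15 genes, Krtap1-5 and Egr1 had a called difference between the media. Over the median of all probe sets of a gene, in place of the brightest, Fmod differed by 1.57.

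Regulators of the integrated stress response were mostly higher in Cebpg-/- cells. Of 22 tested regulators and feedback genes of that response, 14 were higher in Cebpg-/- cells (63.6%), 1 was higher in Atf4-/- cells, and 7 did not pass the test. The median difference was 0.61, and 9 genes differed by at least 2-fold, all higher in Cebpg-/- cells. Chac1, a glutathione-degrading enzyme, stood at 5.82, 5.77 and 6.17 in Atf4-/- cells and at 9.28, 9.26 and 10.32 in Cebpg-/- cells. The groups were far apart, with Cebpg-/- replicate 3 the highest array, and the difference was 3.70 ± 0.22 (adjusted p = 4.64e-09). Nupr1, a small stress-induced chromatin protein, stood at 7.76, 7.19 and 8.24 against 11.22, 11.15 and 11.92 (3.70 ± 0.29, adjusted p = 5.96e-08). Trib3, a pseudokinase that feeds back on ATF4, stood at 6.02, 5.91 and 5.76 against 8.40, 8.45 and 9.28 (2.81 ± 0.18, adjusted p = 1.1e-08). Herpud1, a component of the machinery that clears misfolded proteins from the endoplasmic reticulum, stood at 8.08, 8.27 and 8.12 against 10.66, 10.62 and 10.87 (2.56 ± 0.07, adjusted p = 8.23e-13).

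The place of the Cebpg-/- cells between Atf4-/- and WT cells differed from gene to gene. In AAD medium Nupr1 in Cebpg-/- cells differed from WT by -0.06 ± 0.29 (adjusted p = 0.896) and Chac1 by -0.54 ± 0.22 (adjusted p = 0.0735), neither of which passed the test. Trib3 differed from WT by -2.05 ± 0.18 in Cebpg-/- cells and by -4.86 ± 0.18 in Atf4-/- cells. The bZIP factors Atf5 and Jdp2 behaved likewise: Atf5 was 1.68 ± 0.11 higher in Cebpg-/- than in Atf4-/- cells and differed from WT by -1.23 ± 0.11, and Jdp2 was 1.20 ± 0.09 higher and differed from WT by -0.95 ± 0.09. Cebpb, another C/EBP partner of ATF4, differed by 0.91 ± 0.09 (adjusted p = 5.27e-07), and Sesn2, an inhibitor of mTORC1, by 1.24 ± 0.22 (adjusted p = 0.000182). The hormone Fgf21 stood at 4.65, 4.27 and 4.33 against 5.05, 5.17 and 5.24, a difference of 0.74 ± 0.20 (adjusted p = 0.00651), with WT cells above both at 6.72 ± 0.57. Vldlr, a lipoprotein receptor, was the 1 member higher in Atf4-/- cells: it stood at 7.98, 8.01 and 8.34 there and at 7.06, 7.15 and 7.45 in Cebpg-/- cells (-0.89 ± 0.12, adjusted p = 1.18e-05), both under the WT level of 9.45 ± 0.06.

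Of 19 regulators with a promoter in the RefSeq table (GRCm38.p6, 250 bases before to 50 after the start site) 8 held the C/EBP-ATF composite element TGATGNAA on either strand (42.1%, against 2.75% of the 10627 tested genes with a promoter there). It was found in 5 of 12 aminoacyl-tRNA synthetases (41.7%), 2 of 18 amino acid and one-carbon enzymes, 2 of 12 genes of cystine and glutathione, 3 of 20 amino acid carriers and 0 of 29 immediate early genes. The 18 different genes of these lists that held it were all called in AAD medium, against 49% of all genes, and 17 of them were higher in Cebpg-/- cells. Of the lists as a whole, 15 of 22 regulators, 16 of 20 enzymes and 16 of 19 synthetases were called. So were 11 of 16 genes of cystine and glutathione and 17 of 26 carriers. What the element adds to membership of these lists was not tested. The RefSeq windows shown hold the element in capitals with up to 60 bases on each side, cut at the upstream end of the promoter and at the start site, and it reads TTGCATCA where it lies on the other strand. The distance is that of the element to the start site. They are examples picked by hand and not a ranking by difference, and they include Vldlr, whose difference ran the other way. Trib3 (2.81) and Slc1a4 (1.60), among others, hold the element too and are not shown.
Chac1 (chr2:119350992-119351116, + strand, 193 bases before the start): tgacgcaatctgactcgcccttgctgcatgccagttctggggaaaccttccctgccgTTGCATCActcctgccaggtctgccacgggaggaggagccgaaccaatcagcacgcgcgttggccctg
Nupr1 (chr7:126625513-126625640, - strand, 110 bases before the start): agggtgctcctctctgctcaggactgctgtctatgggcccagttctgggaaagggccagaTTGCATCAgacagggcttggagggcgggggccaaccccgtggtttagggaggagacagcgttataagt
Herpud1 (chr8:94386257-94386384, + strand, 112 bases before the start): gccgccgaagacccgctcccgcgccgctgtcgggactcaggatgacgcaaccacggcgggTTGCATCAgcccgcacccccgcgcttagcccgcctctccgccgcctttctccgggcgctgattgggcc
Atf3 (chr1:191183376-191183503, - strand, 110 bases before the start): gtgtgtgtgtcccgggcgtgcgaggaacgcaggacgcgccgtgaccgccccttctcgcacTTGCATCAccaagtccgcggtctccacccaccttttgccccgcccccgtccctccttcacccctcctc
Vldlr (chr19:27216770-27216887, + strand, 200 bases before the start): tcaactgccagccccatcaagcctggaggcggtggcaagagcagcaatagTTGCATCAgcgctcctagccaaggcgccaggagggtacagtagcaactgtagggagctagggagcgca
Asns (chr6:7693210-7693292, - strand, 23 bases before the start): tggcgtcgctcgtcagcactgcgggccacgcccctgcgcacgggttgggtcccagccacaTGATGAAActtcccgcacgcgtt
Aars (chr8:111033670-111033797, + strand, 112 bases before the start): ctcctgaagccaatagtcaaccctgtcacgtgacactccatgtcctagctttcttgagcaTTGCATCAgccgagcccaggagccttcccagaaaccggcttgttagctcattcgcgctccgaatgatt
Slc7a11 (chr3:50443614-50443739, - strand, 66 and 47 bases before the start): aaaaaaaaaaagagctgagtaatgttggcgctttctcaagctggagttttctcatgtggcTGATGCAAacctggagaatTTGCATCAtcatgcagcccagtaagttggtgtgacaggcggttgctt
The differences of Vldlr and Jdp2 were -0.58 and 0.64 over the median of their probe sets. A match is a description of these letters and not a shown binding site.

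A difference between the media was called for 7 of the 22 regulators, all toward Cebpg-/- cells (31.8%, against 3.77% of all genes tested). With the replicate as a block within genotype it was called for 9 toward Cebpg-/- and 1 toward Atf4-/- cells (7.64% and 5.85% of all genes). Atf3, a bZIP repressor, stood at 8.48 ± 0.19 in Atf4-/- and at 7.24 ± 0.13 in Cebpg-/- cells in normal medium (SD, n = 3). In AAD medium it stood at 8.84, 9.28 and 9.06 in Atf4-/- cells and at 11.05, 10.93 and 10.87 in Cebpg-/- cells. The order of the knockouts was thus opposite in the media, from -1.23 ± 0.12 to 1.89 ± 0.12, and the difference between the media was 3.12 ± 0.17 (adjusted p = 2.97e-08). Ddit3, which encodes the pro-apoptotic factor CHOP, stood at 10.20, 10.07 and 10.08 in Atf4-/- cells and at 10.48, 10.44 and 10.87 in Cebpg-/- cells. It was 0.48 ± 0.10 higher in Cebpg-/- cells in AAD medium (adjusted p = 0.001) and differed by -0.90 ± 0.10 in normal medium, a difference between the media of 1.37 ± 0.14 (adjusted p = 2.31e-05).

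Other stress genes were higher in Atf4-/- cells in normal medium and close to level after deprivation. Ppp1r15a encodes GADD34, which directs the phosphatase that reverses eIF2 phosphorylation. It stood at 9.95 ± 0.09 in Atf4-/- cells and at 8.07 ± 0.15 in Cebpg-/- cells in normal medium. In AAD medium it stood at 10.23, 10.38 and 10.29 against 10.58, 10.46 and 10.39. The groups did not overlap, but the difference of 0.18 ± 0.08 did not pass the test (adjusted p = 0.088, 95% interval 0.00 to 0.35), and the difference between the media was 2.06 ± 0.12 (adjusted p = 4.99e-08). Klhl24, a substrate adaptor of a ubiquitin ligase, stood at 9.36, 9.41 and 9.51 against 8.93, 9.09 and 9.39 in AAD medium, where the groups overlapped (-0.29 ± 0.18, adjusted p = 0.194). Its difference between the media was 1.29 ± 0.25 (adjusted p = 0.00558). Crebrf, a negative regulator of the endoplasmic reticulum factor CREB3, differed by -0.24 ± 0.15 in AAD medium (adjusted p = 0.208) and by 0.97 ± 0.21 between the media (adjusted p = 0.0121). Without Cebpg-/- replicate 3, Crebrf (-0.41, adjusted p = 0.0263) and the eIF2 kinase gene Eif2ak3 (-0.40, adjusted p = 0.0148) were called, so that 3 regulators were higher in Atf4-/- cells. The median of the Klhl24 probe sets was called too (-0.48, adjusted p = 0.0196). Ppp1r15b, the constitutive partner of the same phosphatase, was 1.09 ± 0.07 higher in Cebpg-/- cells in AAD medium. Herpud1 and Ppp1r15b were the remaining regulators with a called difference between the media (0.72 ± 0.10 and 0.55 ± 0.10, adjusted p = 0.000256 and 0.00317). Over the median of its probe sets the difference of Ppp1r15b between the media was not called (0.36, adjusted p = 0.0749).

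**Figure D2:**
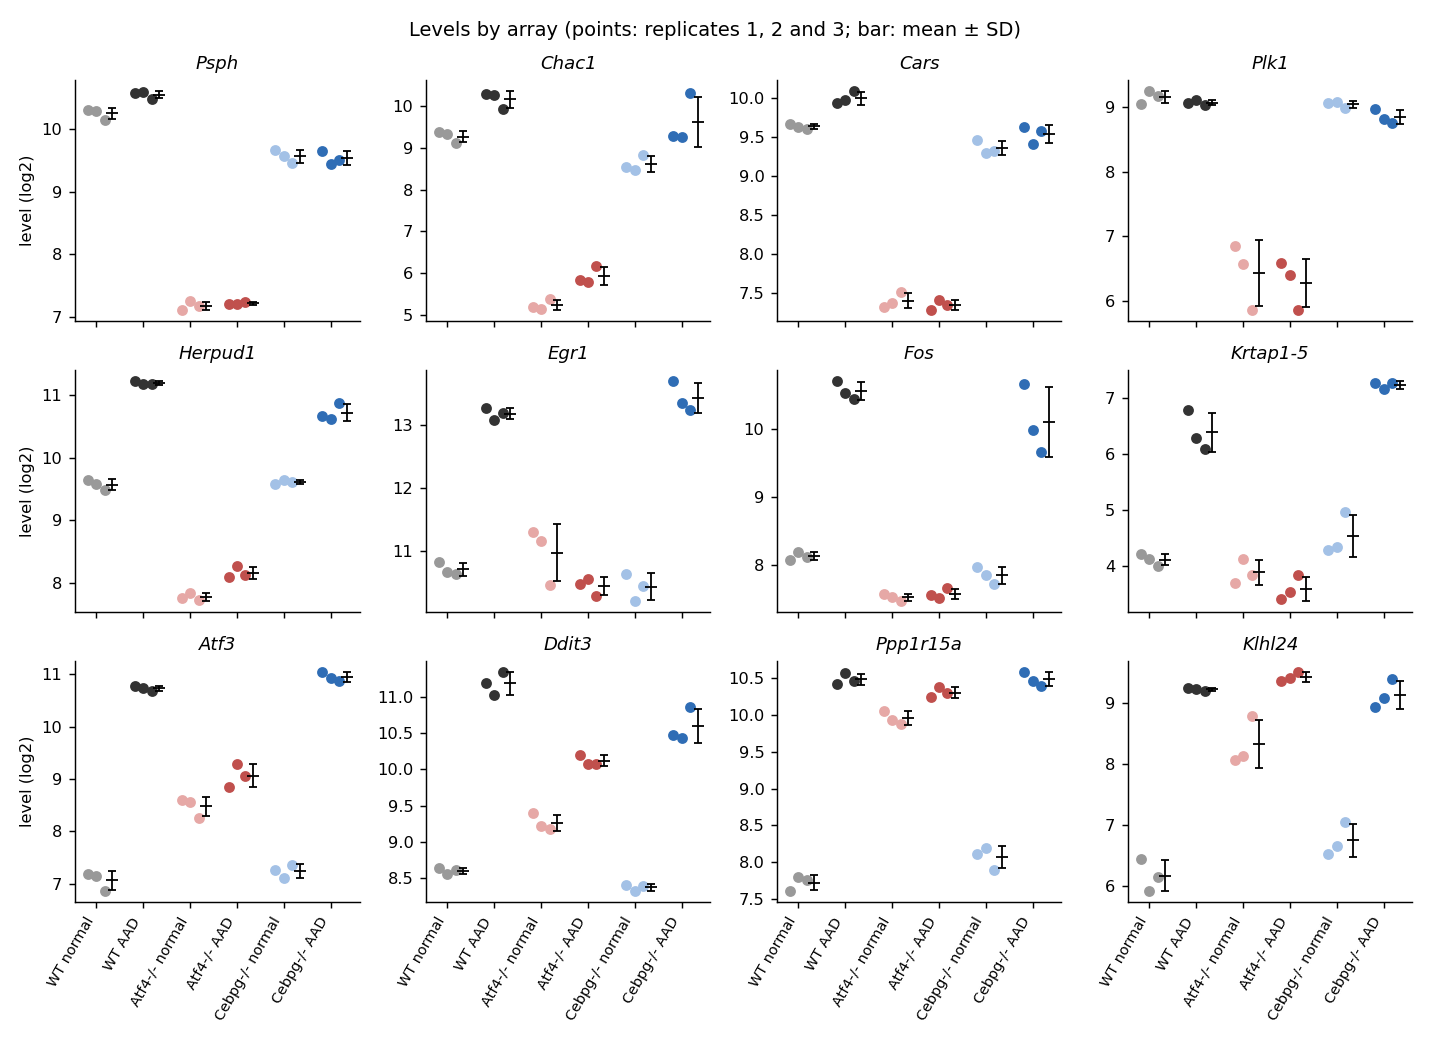
Log2 levels of 12 genes on each of the 18 arrays, by genotype and medium (points: replicates 1, 2 and 3; black bars: mean ± SD). Psph, Chac1, Cars, Plk1 and Herpud1 are low in Atf4-/- cells in both media, Egr1, Fos, Krtap1-5 and Atf3 are high in Cebpg-/- and WT cells in AAD medium, and the knockouts differ by 0.48, 0.18 and -0.29 for Ddit3, Ppp1r15a and Klhl24 in AAD medium, which are higher in Atf4-/- cells in normal medium.

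Enzymes that make amino acids and one-carbon units were higher in Cebpg-/- cells in both media alike. Of 20 tested, 14 were higher in Cebpg-/- cells (70%), 2 were higher in Atf4-/- cells, and 4 did not pass. The median difference was 1.17 in AAD medium and 1.21 in normal medium. None of the 20 had a called difference between the media, with or without the replicate block. Of all genes only 5.42% had one without the block, and 7.64% and 5.85% toward Cebpg-/- and Atf4-/- cells with it, so 0 of 20 is not far from that share. All genes of serine synthesis were higher. Phgdh, the first, stood at 9.93, 9.85 and 10.56 in Atf4-/- cells and at 12.58, 12.75 and 12.94 in Cebpg-/- cells (2.64 ± 0.18, adjusted p = 1.66e-08). Psat1, the second, differed by 1.73 ± 0.07. Psph, the last, stood at 7.20, 7.21 and 7.24 against 9.65, 9.44 and 9.51 (2.32 ± 0.07, adjusted p = 2.42e-12). The mitochondrial folate enzymes that use serine followed: Shmt2 differed by 1.86 ± 0.11, Mthfd2 by 2.18 ± 0.14, Mthfd1l by 1.38 ± 0.10 and Aldh1l2 by 3.12 ± 0.12. Aldh1l2 stood at 5.62, 5.82 and 5.34 against 8.79, 8.70 and 8.63. The proline enzyme Aldh18a1 differed by 2.11 ± 0.07, the branched-chain transaminase Bcat1 by 2.58 ± 0.11, and asparagine synthetase, Asns, at 10.01, 9.85 and 9.77 against 11.47, 11.49 and 11.53, by 1.62 ± 0.08 (adjusted p = 5.97e-10).

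The exceptions in this list were Glul, glutamine synthetase (-0.60 ± 0.12), and the folate enzyme Mthfd2l (-0.63 ± 0.08), both higher in Atf4-/- cells. Of the transaminases of aspartate and alanine, Got1 differed by 0.34 ± 0.07, Got2 by 0.12 ± 0.06 and Gpt by 0.06 ± 0.09, of which only Got1 passed. Gpt2, also an alanine transaminase, differed more, at a mean of 6.79 in Atf4-/- and 7.58 in Cebpg-/- cells (0.78). Phgdh in Cebpg-/- cells was not separated from WT in AAD medium (0.36 ± 0.18, adjusted p = 0.148), whereas Psph (-1.01 ± 0.07), Aldh1l2 (-1.43 ± 0.12) and Asns (-0.67 ± 0.08) were below WT.

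Aminoacyl-tRNA synthetases, which join amino acids to their tRNAs, were higher in Cebpg-/- cells in 16 of 19 cases (84.2%) and higher in Atf4-/- cells in none. Differences of Cars (1.38) and, among the enzymes, Shmt2 (1.22) were smaller over the median of their probe sets. Cars, for cysteine, stood at 7.28, 7.41 and 7.34 in Atf4-/- cells and at 9.63, 9.41 and 9.58 in Cebpg-/- cells (2.19 ± 0.07, adjusted p = 6.53e-12). Yars (1.22 ± 0.08), Aars (1.22 ± 0.06) and Tars (1.14 ± 0.06) followed. No member had a called difference between the media (5.42% of all genes did), and 1 had one with the replicate block. The 3 that did not pass were Kars (0.08), Farsa (0.02) and Hars (-0.04).

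Among 26 amino acid carriers 13 were higher in Cebpg-/- cells (50%), 4 were higher in Atf4-/- cells and 9 did not pass. Slc7a5, the carrier of large neutral amino acids, stood at 7.90, 7.90 and 7.68 against 10.03, 9.96 and 9.91 (2.14 ± 0.11, adjusted p = 1.1e-09). Slc1a4, for alanine, serine and cysteine, differed by 1.60 ± 0.10. The cystine carrier Slc7a11 stood at 4.41, 4.49 and 4.35 against 5.72, 5.37 and 5.46 (1.10 ± 0.13, adjusted p = 3.24e-06). Slc3a2, the heavy chain that both Slc7a5 and Slc7a11 need, differed by 0.94 ± 0.06 in AAD medium and by 0.38 ± 0.06 in normal medium, a called difference between the media (0.56 ± 0.09, adjusted p = 0.00111).

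In cystine uptake, cysteine and glutathione metabolism 11 of 16 genes were higher in Cebpg-/- cells (68.8%), none was higher in Atf4-/- cells and 5 did not pass. Cth, which makes cysteine from cystathionine, stood at 4.75, 4.83 and 5.12 in Atf4-/- cells and at 6.56, 6.81 and 7.09 in Cebpg-/- cells (1.92 ± 0.16, adjusted p = 1.5e-07). It was low in both knockouts, with WT cells at 9.86 ± 0.13. Gclm and Gclc, the subunits of the enzyme that starts glutathione synthesis, differed by 0.74 ± 0.09 and 0.28 ± 0.06. For both, Cebpg-/- cells lay above WT (by 0.90 ± 0.09 and 0.50 ± 0.06). Chac2 (0.30, adjusted p = 0.0135) was no longer called without Cebpg-/- replicate 3 (0.18, adjusted p = 0.0759), and Cbs (0.27, adjusted p = 0.02) was no longer called without Atf4-/- replicate 1, Atf4-/- replicate 2 or Cebpg-/- replicate 2 (0.21 to 0.26, adjusted p = 0.0523 to 0.099). Gss, which completes glutathione, differed by 0.04 ± 0.09 and did not pass.

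**Figure D3:**
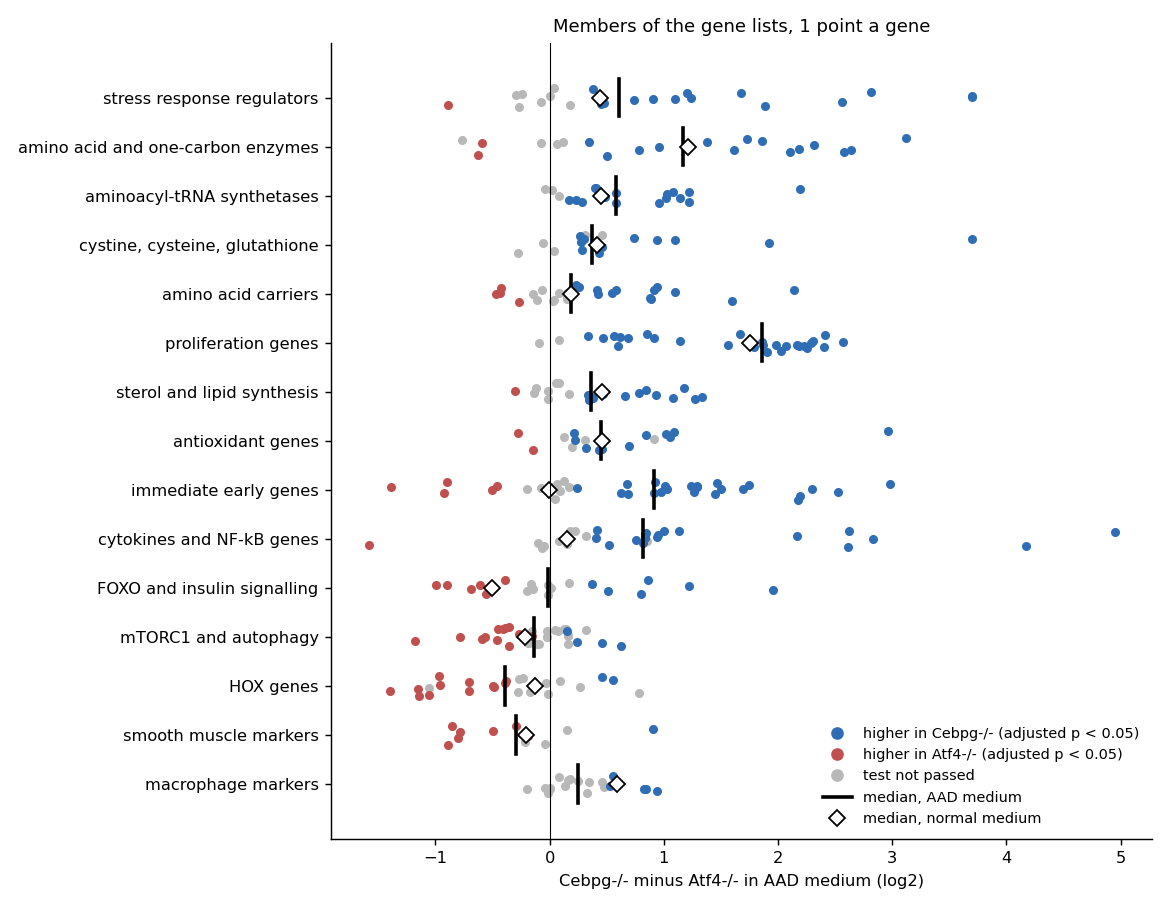
Difference Cebpg-/- minus Atf4-/- in AAD medium (log2, x axis) for the tested members of 15 gene lists, 1 point a gene, coloured by direction where the adjusted p was under 0.05; bars mark list medians in AAD medium and diamonds those in normal medium. The medians of the amino acid enzymes (1.17 and 1.21) and of the proliferation genes (1.86 and 1.75) are nearly the same in both media, while that of the immediate early genes is 0.91 in AAD medium and -0.00 in normal medium.

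Immediate early genes are those that growth factors and stress signals switch on quickly and without new protein synthesis. Of 37 tested, 23 were higher in Cebpg-/- cells in AAD medium (62.2%), 5 were higher in Atf4-/- cells and 9 did not pass. In normal medium the counts were 9 and 14. A difference between the media was called for 26 of the 37, in 25 of them toward Cebpg-/- cells (67.6%, against 3.77% of all genes). With the replicate block it was called for 29 toward Cebpg-/- and 1 toward Atf4-/- cells (7.64% and 5.85% of all genes). Egr1, a zinc finger factor, stood at 10.98 ± 0.45 in Atf4-/- and 10.44 ± 0.21 in Cebpg-/- cells in normal medium. In AAD medium it stood at 10.49, 10.56 and 10.30 against 13.70, 13.35 and 13.24. Egr1 was thus 2.98 ± 0.18 higher in Cebpg-/- cells (7.91-fold, adjusted p = 4.72e-09), with WT cells at 13.19 ± 0.09, and its difference between the media was 3.53 ± 0.25 (adjusted p = 4.53e-07). Fos, a subunit of AP-1, stood at 7.56, 7.52 and 7.66 against 10.67, 9.99 and 9.66 in AAD medium (2.53 ± 0.17, adjusted p = 1.54e-08). In normal medium Fos differed by 0.32 ± 0.17 (adjusted p = 0.122), a difference between the media of 2.20 ± 0.24 (adjusted p = 2.8e-05).

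The other EGR genes differed in both media. Egr2 stood at 8.28, 8.26 and 7.34 against 10.43, 10.13 and 10.21 in AAD medium (2.30 ± 0.24), and its difference between the media of 0.60 ± 0.34 was not called (adjusted p = 0.397) but was with the replicate block (adjusted p = 0.00406). Egr3 stood at 5.32, 5.53 and 5.42 against 7.80, 7.35 and 7.71 (2.20 ± 0.21), with a called difference between the media (1.29 ± 0.30, adjusted p = 0.0163) that was not called without Atf4-/- replicate 1 in both media (1.30, adjusted p = 0.0578). The 5 immediate early genes higher in Atf4-/- cells were Dusp4 (-1.39), Klf2 (-0.93), Nr4a1 (-0.90), Klf11 (-0.51) and Klf4 (-0.46).

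Among ligands and partners of the EGF receptor and endothelin, 4 of 9 genes were higher in Cebpg-/- cells (44.4%, against 21.5% of all genes). In Atf4-/- cells 2 were higher (22.2%, against 27.5%), and 3 did not pass. Edn1, the vasoactive peptide endothelin, stood at 7.13, 7.04 and 6.60 in Atf4-/- cells and at 8.76, 8.49 and 8.35 in Cebpg-/- cells in AAD medium (1.61 ± 0.19, adjusted p = 4.31e-06), and it had a called difference between the media of 2.03 ± 0.27 (adjusted p = 0.000206). Errfi1, a feedback inhibitor of the receptor, differed by 1.42 ± 0.15 in AAD medium and by 0.23 ± 0.15 in normal medium (1.19 ± 0.21 between the media, adjusted p = 0.00247). Hbegf, an EGF receptor ligand, differed by 0.92 ± 0.09.

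Cytokines, chemokines and NF-kappa B genes were higher in Cebpg-/- cells in 18 of 29 cases (62.1%) and higher in Atf4-/- cells in 1. Lif, a cytokine of the IL-6 family, stood at 6.92, 6.36 and 6.24 against 9.39, 9.04 and 9.58 (2.83 ± 0.21) and differed by 2.84 ± 0.21 in normal medium. The chemokine Cxcl2 behaved otherwise. It stood at 4.29 ± 0.13 in Atf4-/- and 4.48 ± 0.17 in Cebpg-/- cells in normal medium, and at 6.23, 6.78 and 6.82 against 8.92, 9.45 and 9.30 in AAD medium. Its difference between the media was 2.42 ± 0.27 (adjusted p = 3.24e-05), and in AAD medium Cebpg-/- cells were also 1.51 ± 0.19 above WT. A difference between the media was called for 9 members, all toward Cebpg-/- cells (31%, against 3.77% of all genes). With the replicate block it was called for 16 toward Cebpg-/- and 1 toward Atf4-/- cells (7.64% and 5.85% of all genes). For Ccl2 it was 0.94 ± 0.30 (adjusted p = 0.09), and with the replicate block it was called (adjusted p = 0.0019). The chemokine Ccl7, at 5.32, 5.50 and 5.41 against 8.86, 7.79 and 7.45, differed by 2.62 ± 0.31.

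Over all genes, the difference between the knockouts was called as different between the media for 717 (5.42%), 499 toward Cebpg-/- cells (3.77%) and 218 toward Atf4-/- cells (1.65%). With the replicate block the counts were 1783, 1010 and 773, and without Atf4-/- replicate 1 in both media 501 genes were called. The count of 218 toward Atf4-/- cells was 141 without that replicate in both media, 123 without Cebpg-/- replicate 2 in normal medium, 139 without Cebpg-/- replicate 2 in AAD medium, and 143 and 144 without Atf4-/- replicate 2 in AAD and in normal medium. At 2-fold and above the counts were 107 and 5. The means of all 107 genes were higher in AAD than in normal medium in Cebpg-/- cells, with a median change of 1.43, against a median change of 0.08 in Atf4-/- cells. The 107 were chosen by their difference between the media on these same arrays, so these changes and the counts that follow come in part from the choice. Of the 107, 66 were called higher in Atf4-/- cells in normal medium (27.3% of all genes were), and 33 were not called there. In AAD medium 83 were called higher in Cebpg-/- cells (21.5% of all genes were). The 5 in the other direction were Ier5l (-1.30 ± 0.21), Ccnf, a cyclin of ubiquitin ligases (-1.02 ± 0.20), Prag1 (-1.002 ± 0.20), 9930012K11Rik (-1.21) and 2810410L24Rik (-1.04). Just under 2-fold lay Rnf145 (-0.99 ± 0.17), a sterol-regulated ubiquitin ligase, and Zc3hav1l (-0.97 ± 0.09). With the replicate block, further genes described here were called between the media: Atf4 (0.44, adjusted p = 0.00476), Nupr1 (0.52, 0.00319), Rnd1 (0.49, 0.0133), Mgp (-0.22, 0.0488), Sesn2 (0.42, 0.0351), Hbegf (0.43, 0.00196), Ccl7 (0.80, 0.00613), Rragd (0.52, 0.013), Cdkn1c (-0.37, 0.0136), Idi1 (-0.44, 0.0106), Hoxc8 (-0.35, 0.0486), Lrp2 (0.47, 0.0221) and Plscr2 (0.80, 0.00199). Calls were shared between the media for 4928 genes, and 4824 of these had the same direction, which is 74.5% of the calls in AAD medium and 73.4% of those in normal medium.

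After Egr1 and Atf3, the largest called differences between the media belonged to Krtap1-5, Tcim and Cxcl2. Krtap1-5, named as a hair keratin-associated protein, stood at 3.42, 3.54 and 3.83 in Atf4-/- cells and at 7.27, 7.15 and 7.27 in Cebpg-/- cells in AAD medium, against 3.89 ± 0.22 and 4.53 ± 0.37 in normal medium. The difference between the media was 2.99 ± 0.26 (adjusted p = 3.62e-06). Tcim, a regulator of Wnt signalling, stood at 8.95, 9.13 and 9.27 against 10.28, 9.96 and 10.30. It differed by -1.38 ± 0.13 in normal medium and by 1.07 ± 0.13 in AAD medium (2.45 ± 0.19, adjusted p = 9.22e-07). Of the 107 genes with a difference between the media of at least 2-fold toward Cebpg-/- cells, 90 had a promoter in the RefSeq table. The cAMP response element TGACGTCA binds CREB and ATF factors and reads the same on both strands. It was in the promoters of 14 of the 90 genes (15.6%, against 3.4% of tested genes), among them Ppp1r15a. The composite element was in 7 (7.78%, against 2.75%), among them Atf3.

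**Figure D4:**
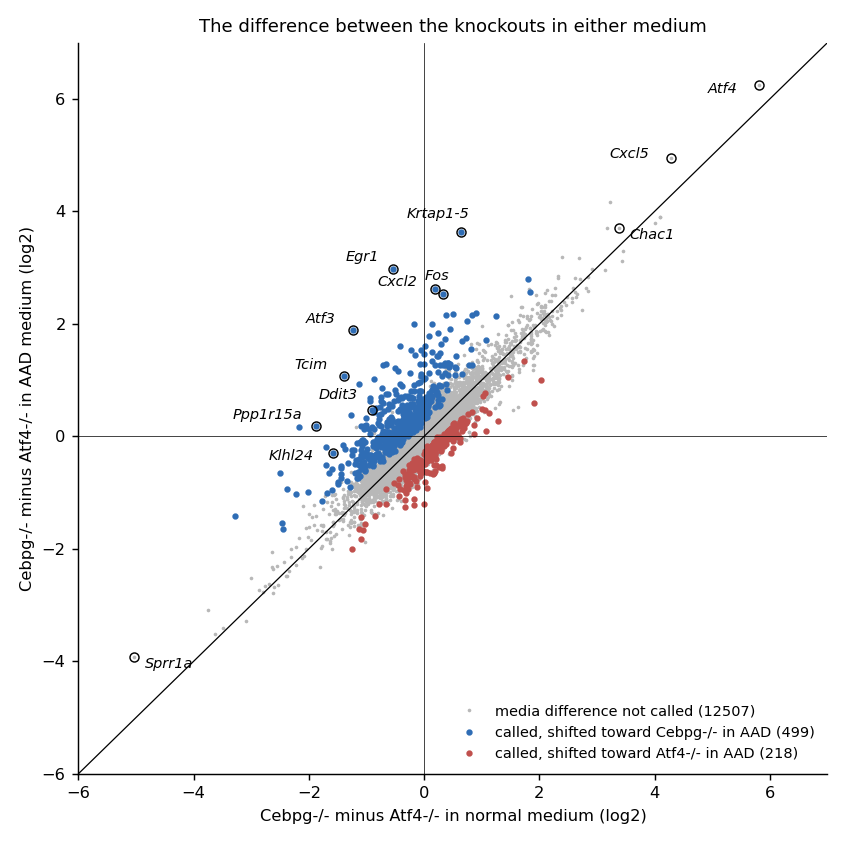
Difference Cebpg-/- minus Atf4-/- (log2) of each autosomal gene in normal medium (x axis) and in AAD medium (y axis); the diagonal marks equal differences. The 499 genes whose difference was called as shifted toward Cebpg-/- cells in AAD medium are blue and the 218 shifted toward Atf4-/- cells are red, and Egr1, Atf3 and Krtap1-5 lie farthest above the diagonal among the genes marked, while Chac1, Cxcl5 and Atf4 lie near it and were not called.

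Genes of nutrient signalling did not move as 1 group. Among 19 FOXO-type and nutrient withdrawal genes 6 were higher in each knockout (31.6%, against 21.5% and 27.5% of all genes) and 7 did not pass, whereas in normal medium 2 were higher in Cebpg-/- and 13 in Atf4-/- cells. A difference between the media was called for 9 toward Cebpg-/- and 1 toward Atf4-/- cells (3.77% and 1.65% of all genes), and with the replicate block for 13 and 2 (7.64% and 5.85% of all genes). Bcl6, a transcriptional repressor, stood at 8.06, 8.23 and 8.16 against 9.31, 9.41 and 9.38 in AAD medium (1.22 ± 0.06) and differed by -0.51 ± 0.06 in normal medium, a difference between the media of 1.73 ± 0.09 (adjusted p = 2.97e-08). Pdk4, which restrains pyruvate oxidation, was 1.96 ± 0.31 higher in Cebpg-/- cells (between the media 0.95 ± 0.44, adjusted p = 0.27, or 0.000438 with the replicate block). Fbxo32, the muscle ubiquitin ligase atrogin-1, differed by -0.90 ± 0.21. Of 34 genes of mTORC1 control and autophagy 4 were higher in Cebpg-/- cells (11.8%, against 21.5% of all genes) and 12 in Atf4-/- cells (35.3%, against 27.5%). Rragd, a GTPase that brings mTORC1 to lysosomes, stood at 8.15, 8.22 and 8.42 against 6.71, 7.004 and 7.55 (-1.18 ± 0.22, adjusted p = 0.000312), with WT cells lower still at 5.89 ± 0.21. This rests on the brightest probe set of Rragd, since its other probe sets, low in all groups, differed by -0.11 and 0.02. Fnip1, a partner of folliculin, differed by 0.63 ± 0.12 in AAD medium and by -0.94 ± 0.12 in normal medium (1.56 ± 0.18 between the media, adjusted p = 4.05e-05).

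Proliferation genes were almost all higher in Cebpg-/- cells. Of 29 genes of DNA replication and mitosis 27 were higher in Cebpg-/- cells (93.1%), none in Atf4-/- cells, and E2f1 (0.08) and Tyms (-0.09) did not pass. The median was 1.86 in AAD medium and 1.75 in normal medium. No member had a called difference between the media (5.42% of all genes did). With the replicate block 4 had one, all toward Cebpg-/- cells (13.8%, against 7.64% of all genes). The mitotic kinase gene Plk1 stood at 6.58, 6.40 and 5.85 in Atf4-/- cells and at 8.97, 8.82 and 8.76 in Cebpg-/- cells, a difference of 2.57 ± 0.20 (adjusted p = 5.21e-08). Cdc20, which triggers anaphase, differed by 2.41 ± 0.14, and the mitotic motor Kif11, at 7.20, 6.75 and 5.80 against 8.90, 8.85 and 8.92, by 2.31 ± 0.28. Atf4-/- replicate 3 was the lowest array for all 3 genes. Against WT in AAD medium no member of the list was called in Cebpg-/- cells, while 27 were lower in Atf4-/- cells (against 29.5% of all genes called in Cebpg-/- and 23% lower in Atf4-/- cells). In bulk RNA, fewer dividing cells and less of each messenger per cell cannot be told apart.

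The inhibitors of the cell cycle differed in both directions. Cdkn2a, whose transcripts encode p16 and p19ARF, stood at 6.29, 6.35 and 7.44 in Atf4-/- cells and at 8.56, 8.49 and 9.23 in Cebpg-/- cells (2.07 ± 0.30, adjusted p = 3.41e-05). Cdkn2b (1.12 ± 0.25) and Cdkn2c (1.08 ± 0.13) differed in the same direction. Cdkn1c, the imprinted inhibitor p57, stood at 8.65, 8.71 and 8.87 against 7.36, 6.86 and 7.23 and was higher in Atf4-/- cells (-1.59 ± 0.16, adjusted p = 8.14e-07). Over the list of p53 targets and cell cycle inhibitors, 8 of 20 genes were higher in Cebpg-/- cells (40%, against 21.5% of all genes). In Atf4-/- cells 6 were higher (30%, near the 27.5% of all genes), and 6 did not pass.

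Of 18 genes of the oxidative stress factor NRF2 and its pathway, 12 were higher in Cebpg-/- cells (66.7%) and 2 in Atf4-/- cells. Nqo1, a quinone reductase, stood at 5.94, 6.06 and 6.03 against 8.81, 9.06 and 9.06 (2.97 ± 0.14, adjusted p = 4.7e-10). Cebpg-/- cells differed from WT by 1.31 ± 0.14 and Atf4-/- cells by -1.65 ± 0.14. Gstp1, a glutathione transferase, differed by 1.09 ± 0.05. Of 22 genes of sterol and lipid synthesis 14 were higher in Cebpg-/- cells (63.6%) and 1 in Atf4-/- cells, led by Insig1, the sterol sensor (1.34 ± 0.10), and Idi1 (1.27 ± 0.09), and both knockouts lay below WT, with 19 and 20 of the 22 genes lower in Cebpg-/- and in Atf4-/- cells (13.3% and 23% of all genes). Among 19 genes of hypoxia and glycolysis 11 were higher in Cebpg-/- cells (57.9%, against 21.5% of all genes). In Atf4-/- cells 2 were higher (10.5%, against 27.5%). Vegfa, the vascular growth factor, stood at 8.98, 8.94 and 9.21 against 10.36, 10.27 and 10.60 (1.37 ± 0.12). Ribosome biogenesis factors were higher in Cebpg-/- cells in 16 of 28 cases (57.1%, against 21.5% of all genes), with no 2-fold difference. Without Atf4-/- replicate 3 the count was 10. Of 22 endoplasmic reticulum chaperones and their partners 10 were higher in Cebpg-/- cells (45.5%, against 21.5% of all genes). In Atf4-/- cells 2 were higher (9.09%, against 27.5%), and none differed by 2-fold.

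The 15 named genes with the largest excess in Atf4-/- cells ranged from -2.48 to -3.93, and 7 of them, Sprr1a, Lce1l, Lce1f, Lce1h, Sprr2k, Crct1 and Sprr2h, belong to the families of the cornified envelope, the protein shell of the outer skin cells, whose genes lie together on chromosome 3. This grouping was made after the values were seen. Sprr1a stood at 9.78, 10.09 and 10.91 in Atf4-/- cells and at 5.59, 7.88 and 5.53 in Cebpg-/- cells (-3.93 ± 0.46, adjusted p = 4.06e-06), with Cebpg-/- replicate 2 well above the other Cebpg-/- arrays. Lce1l stood at 6.19, 5.91 and 6.56 against 2.76, 2.72 and 2.65, the latter near the bottom of the scale (-3.51 ± 0.23, adjusted p = 1.54e-08). Of 17 tested genes of these families 8 were higher in Atf4-/- cells, all by at least 2-fold, Lce3a was higher in Cebpg-/- cells and 8 did not pass. None had a called difference between the media (5.42% of all genes did), and Lce1f had one with the replicate block (0.67, adjusted p = 0.00281). The genes are close copies, and how far the probes tell them apart was not tested.

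Other leading genes of that side were Cpn1, a subunit of the plasma enzyme carboxypeptidase N, at 7.29, 7.63 and 7.39 against 4.28, 4.07 and 4.12 (-3.28 ± 0.08, adjusted p = 3.66e-13), and Nppb, brain natriuretic peptide, at 10.40, 10.53 and 10.84 against 7.90, 7.67 and 7.83 (-2.79 ± 0.17). Serpinb9b, of a family of serine protease inhibitors, stood at 9.88, 9.76 and 10.35 against 7.36, 7.02 and 7.29 (-2.77 ± 0.18, adjusted p = 1.05e-08), and Ccdc85a differed by -2.65 ± 0.17. Cdo1, which oxidises cysteine, stood at 9.10, 9.04 and 8.05 against 6.36, 5.93 and 6.02 (-2.63 ± 0.27, adjusted p = 1.24e-06). It lay above WT in Atf4-/- cells (1.39 ± 0.27) and below it in Cebpg-/- cells (-1.24 ± 0.27). The decoy interleukin-1 receptor Il1r2 differed by -2.49 ± 0.18 and the endocytic receptor Lrp2 by -2.52 ± 0.14. The receptor phosphatase Ptprz1 differed by -3.41 ± 0.43, and for this gene WT cells, at 8.52 ± 0.45, lay with the Atf4-/- cells. For 14 of the 15 genes the 3 Atf4-/- arrays lay above all 3 WT arrays in AAD medium. The 15 were chosen by their excess on these same Atf4-/- arrays, so this count is no separate support. Of all genes, 31.4% were called higher in Atf4-/- than in WT cells in AAD medium.

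Genes of the extracellular matrix and of positional identity were called in both directions. Of 32 collagen and matrix genes 13 were higher in Cebpg-/- cells (40.6%, against 21.5% of all genes), led after Fmod by Col6a3 (1.29 ± 0.18). In Atf4-/- cells 9 were higher (28.1%, near the 27.5% of all genes), led by the proteoglycan Lum (-1.29 ± 0.29). None had a called difference between the media, which 5.42% of all genes had. Of 17 matrix proteases and inhibitors 9 were higher in Cebpg-/- cells (52.9%) and 5 in Atf4-/- cells (29.4%, near the 27.5% of all genes). The stromelysin Mmp3 stood at 6.16, 5.67 and 5.87 against 8.66, 8.10 and 9.85 (2.97 ± 0.38), with WT cells at 5.85 ± 0.33, and the collagenase Mmp13 differed by 2.53 ± 0.47, while Mmp10 was higher in Atf4-/- cells (-1.38 ± 0.32). Igfbp4, which binds insulin-like growth factors, differed by 2.46 ± 0.21, and the growth factor Igf2, at 12.92, 12.82 and 12.77 against 11.99, 11.85 and 11.65, was higher in Atf4-/- cells (-1.005 ± 0.10). Among 24 HOX genes, which mark position along the body axis, 12 were higher in Atf4-/- cells (50%, against 27.5% of all genes). In Cebpg-/- cells 2 were higher (8.33%, against 21.5%). Hoxc8, at 8.37, 8.58 and 8.48 against 7.07, 6.97 and 7.19, differed most (-1.40 ± 0.11). Of 17 interferon-induced genes 6 were higher in Atf4-/- cells (35.3%, against 27.5% of all genes), led by Gbp2 (-1.37 ± 0.13). Mx2 was higher in Cebpg-/- cells (0.23) and was not called without Atf4-/- replicate 2 or Cebpg-/- replicate 3. Of 20 TGF-beta and BMP genes 7 were higher in each knockout (35%, against 21.5% and 27.5% of all genes), and 4 in Atf4-/- cells without Cebpg-/- replicate 3 or without Atf4-/- replicate 1 in both media.

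The cultures carried the defining genes of fibroblasts. Vim differed by 0.02 ± 0.04, and Col1a2 stood at a mean of 13.42 in Atf4-/- and 13.75 in Cebpg-/- cells. Of 14 tested markers 5 were higher in Cebpg-/- cells (35.7%, against 21.5% of all genes) and 4 in Atf4-/- cells (28.6%, near the 27.5%). Their summed linear level in AAD medium was 45110 to 49620 in Atf4-/- arrays, 46200 to 55860 in Cebpg-/- arrays and 73290 to 77690 in WT arrays. Against WT, 7 were lower and 2 higher in Atf4-/- cells, and 8 were lower and none higher in Cebpg-/- cells (23% and 13.3% of all genes were lower). S100a4 stood at 9.98, 9.64 and 9.55 against 12.29, 12.34 and 11.96 (2.47 ± 0.14), while Lum (-1.29), Pdgfra (-1.01) and Thy1 (-0.90) differed the other way. The value of Pdgfra rests on its brightest probe set, since its other probe sets differed by -0.36 and 0.06. Markers of other cell types were measured too. Of 19 macrophage and myeloid markers 5 were higher in Cebpg-/- cells (26.3%, near the 21.5% of all genes) and none in Atf4-/- cells, and in normal medium 11 were higher in Cebpg-/- cells (57.9%, against 22.4% of all genes). Their summed linear level was 7048 to 9844 in Atf4-/- arrays, 8000 to 10840 in Cebpg-/- arrays and 4265 to 4592 in WT arrays. Of 10 blood markers 3 were tested and all were higher in Cebpg-/- cells (21.5% of all genes were), with summed levels of 149 to 211 and 601 to 1971. The largest difference among them was that of Ppbp, the platelet chemokine, at 5.70, 5.97 and 5.45 against 8.72, 9.32 and 10.77. The haemoglobin genes Hba-a1 and Hbb-y lay under the level filter of 4.65 in every group, and so did the erythroid genes Alas2 and Gata1, which are X-linked and were in any case not tested. Smooth muscle markers were higher in Atf4-/- cells in 7 of 11 cases (63.6%, against 27.5% of all genes) and in Cebpg-/- cells in 1 (9.09%, against 21.5%). Their summed levels were 49470 to 53240 against 40900 to 46100. Of 16 epithelial markers 11 were tested, 3 were higher in Cebpg-/- cells (27.3%, near the 21.5% of all genes) and none in Atf4-/- cells, and Cdh1, Trp63 and Dsp lay under the filter in every group. The count of 3 was 0 without Atf4-/- replicate 2 or Cebpg-/- replicate 2, 1 without Atf4-/- replicate 1 and 5 without Cebpg-/- replicate 1. Of 5 tested adipocyte markers 3 were higher in Cebpg-/- cells (60%, against 21.5% of all genes), led by Fabp4, at 5.06, 6.98 and 6.28 against 8.42, 8.60 and 8.93 (2.54 ± 0.56). The part that such cells have in the chemokine, protease and cornified envelope results was not tested.

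Genes near the targeted genes were called about as often as others, but less often with a difference of at least 2-fold. Within 20 Mb of Atf4 153 of 342 genes were called (44.7%), within 20 Mb of Cebpg 186 of 390 (47.7%), and elsewhere 6137 of 12490 (49.1%). The shares called with at least 2-fold were 2.34% near Atf4, 3.08% near Cebpg and 6.04% elsewhere.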

How the data were processed

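The values used are the log2 expression values of each Affymetrix probe set that the authors deposited for 18 arrays, made with RMA per the submitters' processing notes, with the version not given in the sources used here. RMA normalizes all arrays to one distribution, so a shift of total RNA between knockouts is not seen. Of 45101 probe sets, 34958 had 1 gene symbol, 932 had several and were not named, and 9211 were not listed in the probe table. Each gene was represented by its probe set with the highest mean. Of 17405 autosomal genes, 13224 were tested, those whose highest group mean reached 4.65, the 40th percentile. A mean per group was fitted over all 6 groups (12 residual degrees of freedom) with limma 3.58.1 (lmFit, eBayes) in R 4.3.3, with Benjamini-Hochberg adjustment over the genes tested. Tables and plots were made with pandas 2.3.3 and matplotlib 3.10.9, and the fit was tested on simulated data. The number of arrays limits the precision.

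The difference between the media is the difference between the knockouts in AAD medium minus that in normal medium. Arrays of the same genotype and number deviated together across the media (r of 0.300 to 0.672 in 9 of 9 pairs), so the replicate was also fitted as a block within genotype. Arrays of the same number in the knockouts did not (-0.0447 to 0.0759).

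Genes to name were drawn from the targeted genes, the 15 largest differences in each direction with arrays that did not overlap, the 5 largest differences between the media in each direction, the 4 largest of each gene list, and members of the stress response, glutathione and amino acid enzyme lists. The members and gene lists were chosen with earlier results of these data known. Alternatives changed the arrays in the fit, the block, the filter, the scaling, the probe set rule, the genes adjusted over, the moderation and each array in turn. Leaving out Atf4-/- replicate 1 in both media was chosen after seeing the data. Promoters come from RefSeq (GRCm38.p6), and 78 of 100 members of the 5 lists searched for the composite element had one. Sex-linked genes were not tested.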

Additional observations from a re-analysis of the deposited data

Results flagged for a closer look

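The difference between the knockouts, Cebpg-/- minus Atf4-/-, was itself different in AAD and in normal medium for 25 of the genes described, by limma's test of that difference with Benjamini-Hochberg adjustment over 13224 genes (12 residual degrees of freedom). Each value is the difference in AAD medium minus that in normal medium on the log2 scale. It was positive, toward Cebpg-/- cells, for the transcription factors Egr1 (3.53), Atf3 (3.12), Fos (2.20), Bcl6 (1.73), Ddit3 (1.37) and Egr3 (1.29). It was positive for the signalling genes Tcim (2.45), Cxcl2 (2.42), Edn1 (2.03), Errfi1 (1.19) and Fnip1 (1.56), and for Krtap1-5 (2.99). Among the other stress response genes it was 2.06 for Ppp1r15a, 1.29 for Klhl24, 0.97 for Crebrf, 0.72 for Herpud1 and 0.55 for Ppp1r15b, and for the amino acid carrier subunit Slc3a2 it was 0.56. It was negative, toward Atf4-/- cells, for Ier5l (-1.30), 9930012K11Rik (-1.21), 2810410L24Rik (-1.04), Ccnf (-1.02), Prag1 (-1.002), Rnf145 (-0.99) and Zc3hav1l (-0.97).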

How the results depend on the processing

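The count of genes that differed between the media rested on how the replicates were treated: 717 without a block, 1783 with the replicate as a fixed block within genotype (1010 toward Cebpg-/- and 773 toward Atf4-/- cells) and 1876 with it as a random block. The other alternatives kept the total counts of the comparisons within 1.5 times, though not the 218 toward Atf4-/- cells between the media, which were 123 to 144 without replicate 2 of either knockout in either medium and 141 without Atf4-/- replicate 1 in both media. With the replicate number as a fixed block over all groups, 6612 genes differed in AAD medium, against 6478. Leaving out each array in turn gave 5776 to 6476 genes in AAD medium, 5833 to 6136 in normal medium, 498 to 749 between the media, 6546 to 6793 for Atf4-/- against WT and 2817 to 3691 for Cebpg-/- against WT. Without Atf4-/- replicate 1 in both media the count in AAD medium was 5993. Some called differences in AAD medium moved by over 1.5 times over the median of a gene's probe sets and are not given above. They included those of Cpn1 (-1.93), Fbxo32 (-0.33), Egr3 (1.11), Lif (1.80) and Fabp4 (1.54), each still called. The median over the probe sets of Rragd and of Eif2ak3 fell under the filter and was not tested. Small counts of list members against the main direction moved with single arrays: for the NRF2 list from 2 to 1, for the hypoxia list from 2 to 1, for the sterol list from 1 to 0, and for the HOX genes higher in Cebpg-/- cells from 2 to 1. A gene near the background of its probe set has a compressed difference, which the deposited values do not show.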
